A study of Rattus norvegicus with 35 samples.

Results

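The comparison described here sets the colon against the faeces of footshocked rats. It takes the 16 libraries labelled as shocked, 8 of colon and 8 of faeces, out of 35 in the series, chosen by their tissue and treatment labels. Footshock is an aversive stimulus used in rats to model post-traumatic stress disorder, and the study set the model beside questions of gut and brain and of irritable bowel syndrome. Control rats (10 colon and 9 faecal libraries, treatment labelled Control) serve below only to show whether a difference also stands in rats without footshock. The sources used here give no strain, age, sex or shock schedule, and do not say whether colon DNA came from the wall or from the contents. Libraries of both compartments carry the numbers 11 to 18, which name them below. Whether a number is a rat, and whether every library is another animal, is not stated. The p-values therefore speak only of the spread among these libraries, which may in part be technical.

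The bacterial 16S ribosomal RNA gene holds stretches that differ between bacteria, and reads of an amplified stretch are grouped into sequence features that stand for kinds of bacteria. A feature's share of a library's reads is a relative measure, so a higher share of one feature lowers the shares of the rest, and nothing in it gives the number of bacteria. The community of faeces is known to differ from that at the wall of the gut, where mucus, oxygen and host secretions select other bacteria. The deposited table gives each feature as a 32-character code, with no sequence and no name of a bacterium. Features are therefore described by code for 4 of them and otherwise by rank, and no genus is named.

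Depth separated the compartments. The 8 shocked colon libraries ran from 448 to 9418 reads, with a median of 1824.5, and the 8 shocked faecal libraries from 6420 to 24251, with a median of 11348.5. The faecal libraries were thus 6.68-fold deeper by geometric mean (exact permutation, two-sided like all such tests here unless stated, p = 0.000466, adjusted p = 0.00133 over 4 single-value comparisons). The order held in 7 of the 8 numbers. The exception was number 14, with 9418 reads in colon and 6420 in faeces. If no read was seen, a feature can still make up as much as 3 reads of a library's total. This floor averaged 0.244% in colon and 0.0278% in faeces. Because the lowest count above 0 in the table is 2, a feature read once in a library does not appear there. A count of 0 may thus hide a single read, in which case the floor is higher and folds set against it are smaller. No pair of libraries of one compartment agreed within sampling noise (56 pairs, lowest chi-square per degree of freedom 9.15).

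The features common to colon and faeces carried most reads of both. The 16 libraries held 655 features, of which 189 were read in both compartments, 98 in colon alone and 368 in faeces alone. The 189 shared features took 85.2% ± 9.41 of the reads in colon and 87.6% ± 4.97 in faeces (SD, n = 8 each). Colon 14, the deepest colon library, had only 4.71% of its reads in features not seen in any shocked faeces, and colon 11 had 32.5%. With every library thinned to the 448 reads of the shallowest, 400 features were left, 145 in both compartments, 80 in colon alone and 175 in faeces alone. Single-library features were common, since 361 of the 655 were read in 1 of the 16 libraries only.

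Only 8 features were read in all 16 libraries. Together they made up 35.4% ± 5.70 of the reads in colon (25.1% to 43.3%) and 23.6% ± 6.31 in faeces (15.4% to 33.3%; SD, n = 8 each). Of these 8, 2 were called higher in colon and 1 higher in faeces by the test described below, and the other 5 were not called. Among all 136 features tested, 15 (11%) were called. At least 4 libraries of each compartment held 33 features. Across those 33 the mean shares in colon and faeces had a Spearman correlation of 0.561, a description across features that share their libraries. In that group 18 of 33 features had mean shares within 2-fold of each other, and 5 differed by more than 5-fold.

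At equal depth the colon held fewer features than the faeces. After rarefaction, a random draw of the same number of reads from each library, to 1000 reads, colon libraries held 46.0 to 112.9 features (median 77.6) and faecal libraries 99.2 to 144.1 (median 120.4). Colon 14 was the only colon library that reached into the faecal range. The means were 76.9 ± 23.0 in colon (SD, n = 6, without numbers 12 and 17, which are under 1000 reads) and 120.2 ± 12.4 in faeces (SD, n = 8), a difference of -43.3 features (exact permutation p = 0.000666, adjusted p = 0.00133). Colon was lower in 6 of 6 numbers with both libraries. At 448 reads, which keeps all 16 libraries, the means were 60.2 ± 18.8 and 95.4 ± 7.51 features (SD, n = 8 each; exact permutation p = 0.000311).

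Colon was also lower in the Shannon index, a measure of diversity that grows with more features and with a more even spread of reads. It ran from 3.25 to 3.97 in colon and from 3.64 to 4.12 in faeces at 1000 reads, so the ranges overlapped. The means were 3.63 ± 0.258 (SD, n = 6) and 3.98 ± 0.161 (SD, n = 8), a difference of -0.34 (exact permutation p = 0.0107, adjusted p = 0.0142). At 2000 reads, with 4 colon libraries left, the difference of -0.227 missed the threshold (exact permutation p = 0.0606). The 10 most abundant features of a library took 41.1% to 64.7% of reads in colon and 40.1% to 56.4% in faeces. Their mean shares, 53.2% ± 7.56 and 47.2% ± 5.16 (SD, n = 8 each), differed by less than the test could show (exact permutation p = 0.0884).

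Features at equal depth rose with the depth of the colon library before rarefaction. Colon 12 and 17, the shallowest at 448 and 691 reads, held 32.0 and 45.8 features at 448 reads, and colon 14, at 9418 reads, held 87.2. Over the 8 colon libraries, features at 448 reads and log2 depth had a Pearson r of 0.952 (exact permutation p = 0.000719, adjusted p = 0.00324 over 9 relations with depth) and a Spearman rho of 0.905 (exact permutation p = 0.00456, adjusted p = 0.0137). Without colon 12 and 14, the 2 libraries farthest from the median depth, r was 0.887 (exact permutation p = 0.0333, n = 6). The 8 faecal libraries gave r = 0.261 and rho = -0.119 (exact permutation p = 0.562 and 0.793, adjusted p = 0.632 and 0.793; r = -0.400 without faeces 15 and 16). These relations were chosen after the values were seen. The part of depth in the difference between compartments was not tested. Where depths come close, there is 1 colon library. Colon 14 held 112.9 features at 1000 reads and the faecal libraries of 6420 to 9697 reads held 114.7 to 120.3. At 448 reads it held 87.2 and they held 95.1 to 98.6. Its Shannon index at 1000 reads was 3.80 and theirs were 3.94 to 4.12.

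**Figure D1:**
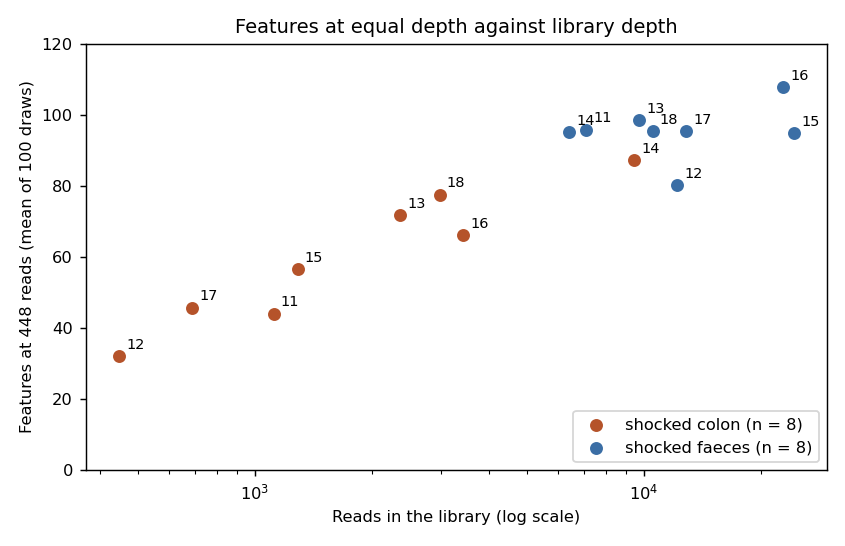
Features per library at 448 reads (mean of 100 draws) against the reads of the library on a log axis, for 8 shocked colon and 8 shocked faecal libraries; each point is a library with its number. Colon points climb from 32.0 features at 448 reads to 87.2 at 9418 reads, and faecal points lie between 80.2 and 107.8.

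In control rats the gap was not seen. At 1000 reads control colon held 106.5 ± 29.0 features (SD, n = 9) and control faeces 102.8 ± 29.2 (SD, n = 9), a difference of 3.71 (exact permutation p = 0.789). The compartment difference was thus 47.0 features further below 0 in shocked rats than in controls (-47.0; two-sided permutation of treatment within each compartment, p = 0.0129, adjusted p = 0.0257 over 8 comparisons of depth and diversity). For the Shannon index the control means were 3.89 ± 0.366 and 3.69 ± 0.352 (SD, n = 9 each), and the 2 compartment differences were -0.542 apart (permutation p = 0.0169, adjusted p = 0.0271). Without the control libraries numbered 1, which lie apart from their groups, the contrasts were -41.1 features and -0.487 (permutation p = 0.0340 and 0.0354). Control colon 1 was closer to control faeces than to the other control colon libraries (mean Bray-Curtis distance 0.526 against 0.678, on the scale from 0 for equal shares to 1 for none in common), and control faeces 1 was far from both (0.917 from colon, 0.961 from faeces). This contrast was known from earlier results of these data and is no independent evidence. Control colon libraries were deeper than shocked ones, with 638 to 16155 reads (median 4093, n = 10), and the part of that in the contrast was not tested.

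Composition differed between the compartments more than within them. The Bray-Curtis distance, which is 0 for libraries of equal shares and 1 for libraries with no feature in common, averaged 0.585 ± 0.0718 within colon (SD over 28 pairs of libraries) and 0.506 ± 0.0756 within faeces (28 pairs). It averaged 0.677 ± 0.0980 across the compartments (64 pairs). Compartment accounted for 27.5% of the variation in distance (permutational analysis of variance, exact p = 0.000155 over all 12870 assignments of the libraries). The share was 24.0% with every library thinned to 448 reads and 13.9% for the Jaccard distance on presence at that depth (exact p = 0.000155 and 0.00109). Compartments also differed in depth before thinning, and the part of that in these shares was not tested. The library most like it was another colon library for 7 of 8 colon libraries and another faecal library for 8 of 8 faecal libraries. Colon 18 was the exception, closest to faeces 17.

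**Figure D2:**
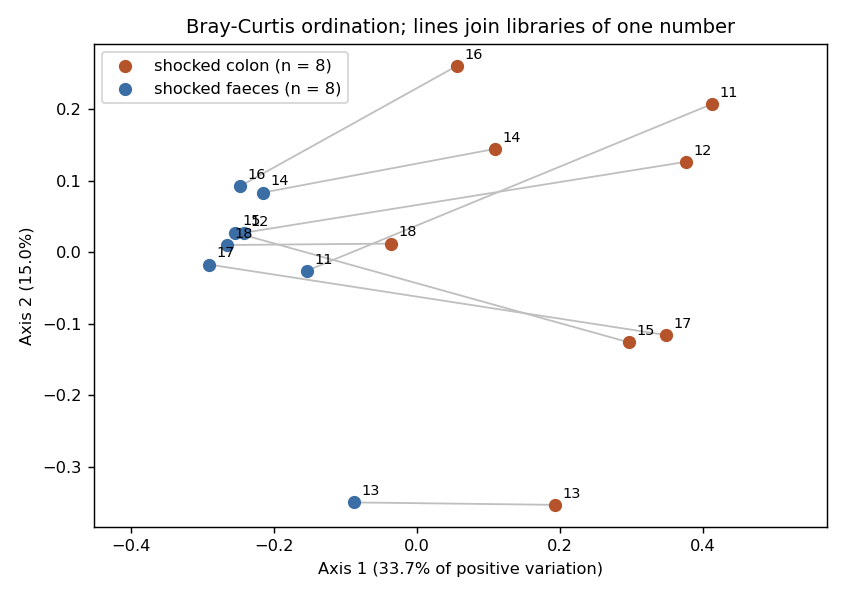
Principal coordinates of the Bray-Curtis distances of the 16 shocked libraries; axis 1 holds 33.7% and axis 2 holds 15% of the positive variation, and grey lines join libraries of one number. Colon libraries lie to the right and faecal libraries to the left, with both libraries numbered 13 apart at the bottom.

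Colon and faecal libraries of a number resembled each other more than libraries of different numbers did. The 8 same-number distances averaged 0.626 ± 0.136 (SD over 8 pairs) and the 56 others 0.685 ± 0.0905 (SD over 56 pairs), a gap of 0.0586 (one-sided exact permutation over all 40320 pairings, p = 0.00878). Same-number libraries lay closer than the mean of the other pairings in 5 of 8 numbers. Faecal libraries of the same number were the nearest faecal library for colon 11, 13 and 14, and same-number colon was the nearest colon library for faeces 13, 14, 16 and 18. Without number 14 the gap was 0.0440 and no longer passed (exact permutation p = 0.0542).

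The likeness of a pair went with the depth of its colon library. Numbers 13, 14, 16 and 18, with colon libraries of at least 2362 reads, had same-number distances of 0.575, 0.470, 0.545 and 0.438. Numbers 11, 12, 15 and 17, with at most 1287 colon reads, had 0.749, 0.766, 0.686 and 0.778, so these 2 ranges did not overlap. Over the 8 numbers, the distance and log2 colon depth had r = -0.898 (exact permutation p = 0.00295, adjusted p = 0.00885 over the 9 relations) and rho = -0.905 (exact permutation p = 0.00456, adjusted p = 0.0137). The relation had r = -0.930 without numbers 12 and 14 (exact permutation p = 0.0181, n = 6). The mean distance of a colon library to all 8 faecal libraries gave r = -0.741 and rho = -0.810 (exact permutation p = 0.0359 and 0.0218, adjusted p = 0.0600 and 0.0392). After thinning to 448 reads these were -0.728 and -0.810 (exact permutation p = 0.0400 and 0.0218, adjusted p = 0.0600 and 0.0392). Without numbers 12 and 14 neither passed (r = -0.799 and -0.778, exact permutation p = 0.0597 and 0.0694, n = 6). In the 10 control colon libraries the mean distance to control faeces gave r = -0.720 and rho = -0.527 (permutation p = 0.0217 and 0.123, adjusted p = 0.0488 and 0.158). That relation rested on control colon 1 and 8, the deepest and the shallowest, since r was -0.139 without them (exact permutation p = 0.739, n = 8).

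**Figure D3:**
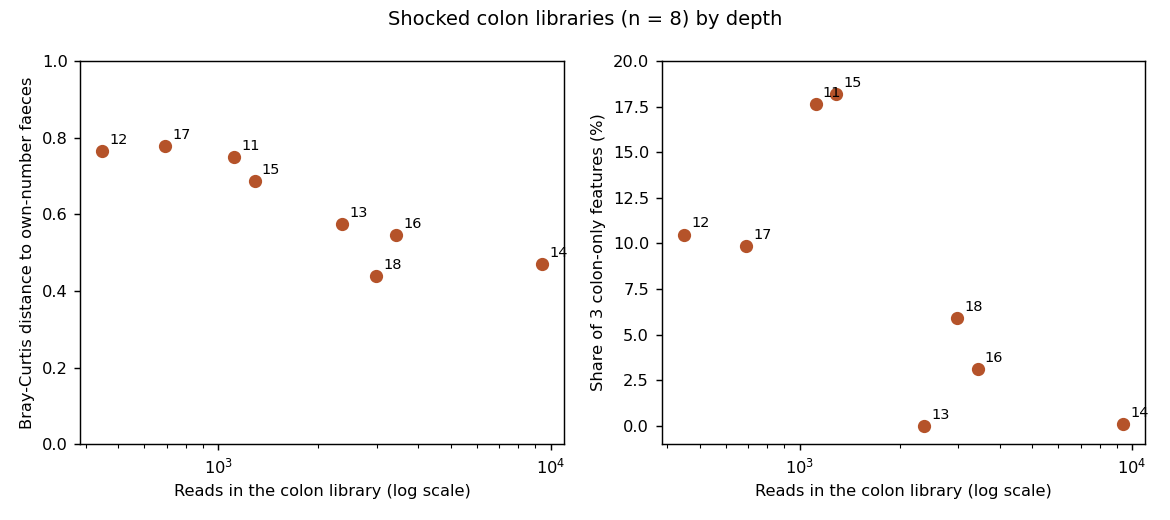
Left, Bray-Curtis distance of each shocked colon library to the faecal library of its number; right, summed share of the 3 called features read in no shocked faeces; both against colon reads on a log axis, with each point a library (n = 8). The 4 colon libraries of at most 1287 reads have distances from 0.686 to 0.778 and shares from 9.84% to 18.2%, and the 4 deeper ones distances from 0.438 to 0.575 and shares from 0 to 5.90%.

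Single features were compared with edgeR's quasi-likelihood test on the counts, for the 136 features with reads in 4 or more of the 16 libraries. These held 86.6% ± 5.38 of colon reads and 86.8% ± 6.34 of faecal reads (SD, n = 8 each). The test called 15 features, or 11% of those tested (Benjamini-Hochberg adjusted p under 0.05), 5 higher in colon and 10 higher in faeces. Of the 15, 11 had no read in one compartment, 3 of the colon and 8 of the faecal calls, and passed the filter only through the compartment in which they are high. The fitted change was toward faeces for 99 of 136 features, with a median log2 fold change, colon over faeces, of -1.10, and single changes below are to be read against that median. With library totals in place of TMM normalization the split was 6 to 6, the median being -0.88. With centred log-ratios in limma it was 4 to 29, the median being -1.67. Without colon 12 and 17, both under 1000 reads, 6 features were called, 4 higher in colon and 2 in faeces.

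The 2 most abundant colon features were read in all 16 libraries and were both called higher in colon. Feature f44404ea806c18f6b05b7cbb4f3e5fd2 made up 4.28% to 9.04% of reads in colon libraries (median 8.24%) and 0.573% to 1.66% in faecal libraries (median 1.08%). Every colon library lay above every faecal one. Its mean was 7.35% ± 1.87 in colon and 1.11% ± 0.398 in faeces (SD, n = 8 each), 6.64-fold higher in colon (log2 fold change 2.38, SE 0.51, edgeR adjusted p = 0.00262). Feature e335f74033bc634af43ee6baa84fa247 followed at 3.22% to 9.10% in colon (median 6.27%) and 0.437% to 1.70% in faeces (median 1.04%), again with no overlap. Its means were 6.24% ± 1.94 and 1.09% ± 0.446 (SD, n = 8 each), 5.75-fold higher in colon (log2 fold change 2.21, SE 0.55, edgeR adjusted p = 0.00808). Both were lowest in colon 13 and next lowest in colon 18. Their summed share did not follow colon depth (r = 0.0529, rho = 0.262, exact permutation p = 0.899 and 0.536, adjusted p = 0.899 and 0.603; r = -0.389 without colon 12 and 14). Without the prevalence filter neither passed in edgeR (adjusted p = 0.0755 for each), and in limma on centred log-ratios neither passed (log2 fold change 0.87 and 0.68, adjusted p = 0.441 and 0.562). Without colon 12 and 17 the second missed the threshold in edgeR (adjusted p = 0.0518), as it did in a fit over all 4 groups (adjusted p = 0.0895).

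The other 3 features called higher in colon had no reads in any of the 8 faecal libraries. The sixth, the eleventh and the twelfth by mean share in colon, each was read in 6 of 8 colon libraries. The first averaged 4.06% ± 3.71 of colon reads (SD, n = 8), 146-fold above the mean floor of 3 reads per faecal library (edgeR adjusted p = 0.000255). The second averaged 2.23% ± 1.87 and the third 1.86% ± 1.99 (SD, n = 8 each), 80.4-fold and 67.1-fold above that floor (edgeR adjusted p = 0.000888 and 0.000891). Their shares differed widely between colon libraries. Colon 11 held 8.77%, 4.39% and 4.48% of them, and colon 15 held 8.78%, 4.82% and 4.58%. Colon 12 held 6.92% and 3.57% of the first and the second and no read of the third, where the floor is 0.670%. None was read in colon 13, and colon 14 held 0.0956% of the third alone. With no faecal reads, all 3 entered the test only through their colon libraries, so that they differ is in part set by the filter.

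The summed share of these 3 features was higher in the shallower colon libraries, though not past the threshold in shocked rats. It was 10.5%, 9.84%, 17.6% and 18.2% in colon 12, 17, 11 and 15, of 448, 691, 1117 and 1287 reads, and 0, 5.90%, 3.12% and 0.0956% in colon 13, 18, 16 and 14, of 2362, 2982, 3432 and 9418 reads. Over the 8 libraries r was -0.666 and rho -0.643 (exact permutation p = 0.0716 and 0.0962, adjusted p = 0.0920 and 0.144; r = -0.664 without colon 12 and 14). The 10 control colon libraries gave r = -0.855 and rho = -0.906 (permutation p = 0.000210 and 0.000520, adjusted p = 0.00189 and 0.00468). Without control colon 1 and 8, r was -0.803 there (exact permutation p = 0.0144, n = 8). In control rats all 3 were again read in no faecal library. The part of depth in their difference between compartments was not tested.

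The 2 most abundant features called higher in faeces were common in both compartments. Feature df3a540f09c1e5ddac171aaeac341297, the third in faeces and the tenth in colon, made up 4.58% to 9.89% of faecal reads (median 6.80%) and 0.423% to 5.13% of colon reads (median 2.67%). Colon 18, at 5.13%, lay above the 2 lowest faecal libraries. Its means were 6.62% ± 1.73 in faeces and 2.79% ± 1.56 in colon (SD, n = 8 each), 2.38-fold higher in faeces (log2 fold change, colon over faeces, -1.56, SE 0.51, edgeR adjusted p = 0.0466), and it was higher in faeces in 8 of 8 numbers. Feature b2ce7f937c4d1e391758282974fcf514, the fourth in faeces, made up 0.125% to 10.8% of faecal reads (median 5.49%) and 0 to 1.89% of colon reads (median 0.981%). Faeces 17, at 0.125%, and faeces 13, at 1.44%, lay within the colon range. Its means were 5.09% ± 3.29 and 0.881% ± 0.688 (SD, n = 8 each), 5.78-fold higher in faeces (log2 fold change -2.81, SE 0.89, edgeR adjusted p = 0.0437), again in 8 of 8 numbers.

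In the main fit both calls sat close to the threshold. The first held in 10 of 26 alternative settings and the second in 14 of 26, against 24 and 22 of 26 for the 2 leading colon features. With library totals alone their adjusted p was 0.0609 and 0.0577 in edgeR, and without colon 12 and 17 it was 0.123 and 0.0705. The first was lost when any of colon 11, 12, 13, 15 or 17 or faeces 11, 12, 14, 15, 16 or 17 was left out (edgeR adjusted p 0.0521 to 0.0840). The second was lost without any of colon 11, 12, 13, 14, 15 or 17 or faeces 11, 12 or 14 (edgeR adjusted p 0.0510 to 0.0852). Both kept their sign in each of the 26 settings.

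**Figure D4:**
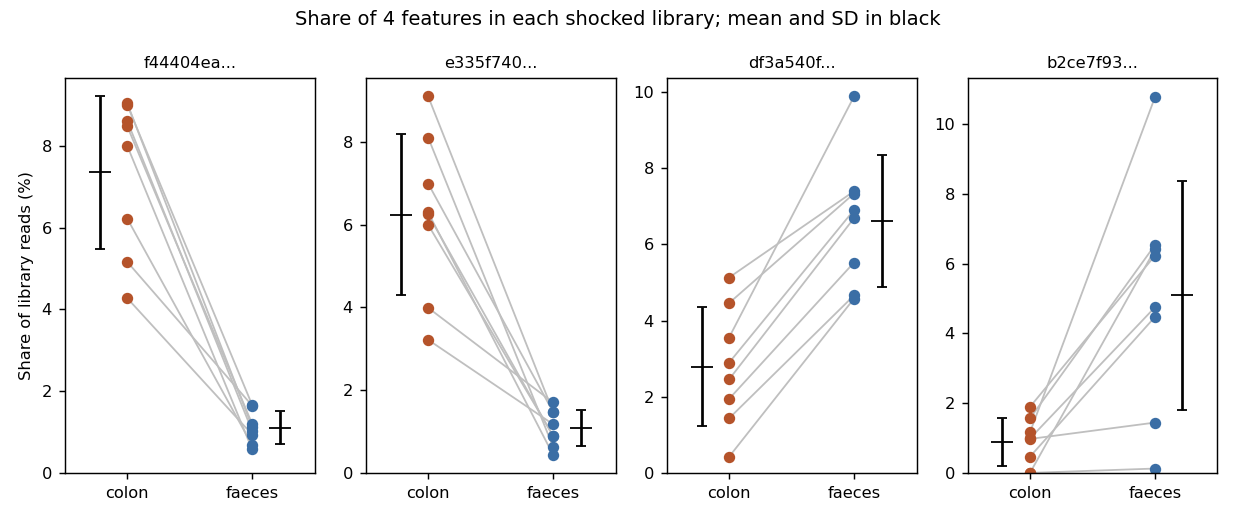
Share of library reads (%) of the 2 most abundant features called higher in colon (left pair) and in faeces (right pair), in 8 colon and 8 faecal libraries of shocked rats; grey lines join libraries of one number, and black bars give the mean and SD. The colon and faecal points of the first pair do not overlap, and those of the second pair do.

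The other 8 features called higher in faeces were minor and had no reads in shocked colon. They were read in 4 to 8 of 8 faecal libraries, averaged 0.179% to 0.357% of faecal reads each, and together made up 2.11% ± 0.710 of faecal reads (SD, n = 8; edgeR adjusted p 0.00808 to 0.0466). Since their faecal reads alone brought them into the test, these calls are given as a description. Set against the mean colon floor of 0.244%, the faecal means of 4 of them were 1.46-fold, 1.40-fold, 1.31-fold and 1.08-fold of it. The other 4 lay under it and get no fold. Single floors ran from 0.233% to 0.670% in colon 11, 12, 15 and 17, where absence of those 4 cannot be told from a like share. In colon 12 and 17, with floors of 0.670% and 0.434%, the same holds for all 8. In colon 11, with a floor of 0.269%, it holds also for the feature at 1.08-fold. In colon 13, 14, 16 and 18 the floors were 0.127%, 0.0319%, 0.0874% and 0.101%, under the faecal mean of each of the 8. These floors take a count of 0 as no read. Only 2 of the 8 were read in all 8 faecal libraries, at 0.357% ± 0.202 and 0.341% ± 0.239 (SD, n = 8 each). All 8 calls were lost in edgeR without the prevalence filter, and 6 of 8 were lost without colon 12 and 17 and likewise with the library number as a block. Both features read in all 8 faecal libraries held in 25 of 26 settings, and the 2 least stable held in 4 of 19. With libraries thinned to 448 reads the 8 features appeared in 2 to 5 of 8 faecal libraries. In control rats 7 of the 8 were read in colon, where they summed to 0.353% ± 0.637 of reads (SD, n = 10), beside 1.27% ± 0.940 in control faeces (SD, n = 9). The compartment contrast of the 6 that could be tested for a difference between shocked and control rats had unadjusted p of 0.00578 to 0.0200 and edgeR adjusted p of 0.221 to 0.230. These features were grouped by having no read in shocked colon. Low unadjusted p and reads in control colon are thus in part set by that choice, and no difference between treatments can be read from them.

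**Figure D5:**
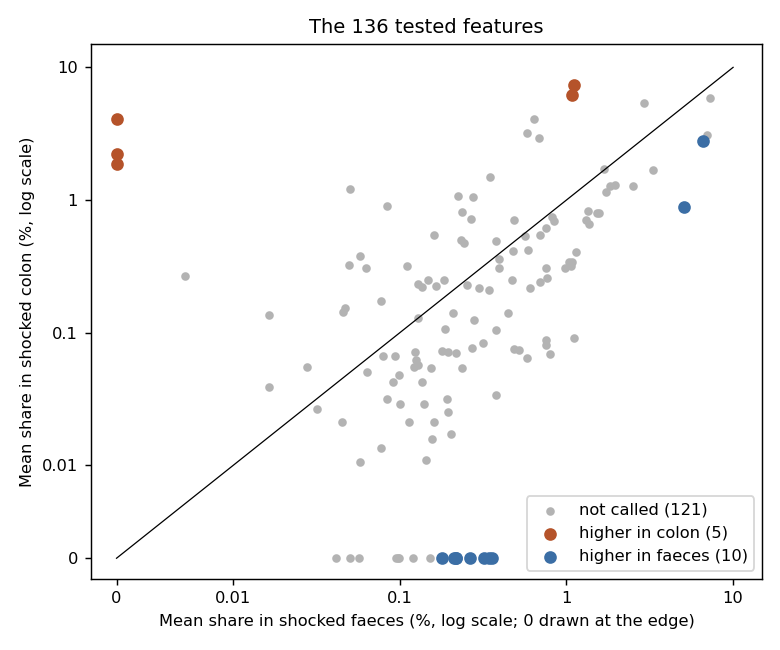
Mean share of reads (%) in 8 shocked colon libraries against that in 8 shocked faecal libraries for the 136 tested features, on log axes with 0 drawn at the edge; the line marks equal shares. Of the 15 called features, 11 had no read in one compartment and lie on an edge, and the 2 leading colon features lie above the line at about 1.1% in faeces.

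Together the 5 colon features made up 7.49% to 32.7% of reads in shocked colon (median 21.6%) and 1.01% to 3.35% in shocked faeces (median 2.10%). The 10 faecal features made up 8.13% to 18.5% in shocked faeces (median 14.4%) and 1.40% to 5.45% in shocked colon (median 3.46%). These sums are descriptions, since the features were picked on the same libraries. Of the 136 tested features, 5 had colon and faecal shares with no overlap, and 4 of these were among the called 11%. They were the 2 leading colon features, read in both compartments, and the 2 minor features read in all 8 faecal libraries. Those 2 minor features had no colon read and passed the filter through faeces alone. Their lowest faecal shares, 0.169% and 0.132%, lie under the floors of colon 11, 12, 15 and 17 (0.233% to 0.670%). Overlap in those 4 libraries can therefore not be excluded.

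Several abundant features did not pass the test. The feature that led shocked faeces by mean share, at 7.31% ± 4.25 there, stood at 5.83% ± 4.06 in colon (SD, n = 8 each; log2 fold change -0.83, edgeR adjusted p = 0.262). It was the most abundant feature of colon 13, 15 and 18 and of faeces 13, where it reached 15.5%. The next in faeces averaged 6.93% ± 3.87 there and 3.12% ± 2.88 in colon (SD, n = 8 each), higher in faeces in 8 of 8 numbers (edgeR adjusted p = 0.262). The fifth colon feature was uneven between libraries, with 16.2% in colon 11, 8.71% in colon 12 and at most 2.32% in the other 6. Its mean of 4.10% ± 5.58 in colon and 0.641% ± 0.824 in faeces (SD, n = 8 each) gave an edgeR adjusted p of 0.262. The seventh and ninth colon features averaged 3.22% ± 2.96 and 2.94% ± 1.27 in colon, and 0.578% ± 0.540 and 0.685% ± 0.630 in faeces (SD, n = 8 each). Both were higher in colon in 8 of 8 numbers, with edgeR adjusted p of 0.0969 and 0.121.

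The same contrast in control rats, fitted on their libraries alone, called 8 of 138 features, or 5.80% (edgeR). Of the 15 calls in shocked rats, 5 were also called there, which is 33.3% of the shocked and 62.5% of the control calls, and all 5 were the colon features. Of these 5, 3 had no faecal read in either treatment. They entered both fits only through colon, so their shared call is in part set by the filter. The leading colon feature averaged 6.55% ± 3.49 of control colon reads, beside 1.11% ± 0.794 in faeces (SD, n = 10 and 9; edgeR adjusted p = 0.0230). The next averaged 6.06% ± 3.21 and 0.859% ± 0.820 (SD, n = 10 and 9; edgeR adjusted p = 0.0296). Of the 10 faecal features 7 could be tested in controls, each was fitted higher in faeces, and none was called. The median log2 fold change, colon over faeces, of all 138 features tested in controls was -0.0771. Without the control libraries numbered 1, 16 features were called in controls, 7 of them shared with the shocked calls, 5 higher in colon and 2 in faeces. Those 2 were df3a540f09c1e5ddac171aaeac341297 and b2ce7f937c4d1e391758282974fcf514, at adjusted p of 0.0127 and 0.00336 (edgeR).

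Whether a feature's compartment contrast itself differed between shocked and control rats was tested in a fit over all 35 libraries. In it edgeR called 0 of 127 features (0%), where 13 had an unadjusted p under 0.05, and DESeq2 called 3, which are none of the 15. Without the libraries numbered 1 edgeR again called 0, of 117, with 8 at an unadjusted p under 0.05. For the 2 leading colon features the interaction had an unadjusted p of 0.683 and 0.484 in edgeR (adjusted p = 0.9998 for each). The other 3 colon features were read in no faecal library of shocked or control rats. Their contrast has no finite size in either, so the interaction cannot compare it, and their unadjusted p of up to 0.9998 in edgeR does not speak of likeness.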

How the data were processed

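The deposited table gives whole-number read counts for each 16S feature. Its header names a biom file as the origin, and the values carry no normalization. Per the labels' protocols, DNA was extracted with a DNeasy PowerSoil Pro kit, the V3-V4 region was amplified with primers 341F and 805R, and libraries were read on a MiSeq. Per the submitters' processing notes cutadapt was used; the feature caller, its filters and any taxonomy are not stated in the sources at hand. Tissue and treatment labels set the groups, and columns were matched to labels by library name.

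Shares are percentages of library totals. Features with reads in 25% or more of a fit's libraries were tested with edgeR 4.0.16 (R 4.3.3, TMM, quasi-likelihood F test, Benjamini-Hochberg adjustment over all tested features). The fit was also run on simulated data, with true folds larger than those of the features given by code. That check therefore does not bear on changes of their size. Single values were compared by exact permutation, and rarefaction used 100 draws. Floors of 3 reads take a count of 0 as no read and cover counting error only, as PCR reads are not independent molecules. A relation with depth leaves out the 2 libraries farthest from the median depth as a check. Features given by code are, in each direction, the 2 called features of highest mean share; the others are described by rank or count. The comparison and its measures were chosen with earlier results of these data known. The relations with depth and the diversity of controls were added after the values were seen. Alternatives were DESeq2 1.42.0, centred log-ratios (0.5 read added to each count) in limma 3.58.1, other normalizations, filters, depths and distances, a block on library number, and each library left out. Figures were drawn with matplotlib 3.10.9.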

Additional observations from a re-analysis of the deposited data

Results flagged for a closer look

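In a search of 22 combinations of a measure and a group, 2 libraries stood apart from the rest of their group by their gap to the nearest other library; chance alone marks about 1 in 20 such combinations. Colon 14 held 9418 reads where the next colon library held 3432. Faeces 13 had 11.8% of its reads in features of no other library of the series, against at most 3.68% in the other shocked faecal libraries. The difference between colon and faeces was itself unlike in shocked and control rats, by -47.0 features at 1000 reads (permutation p = 0.0129) and by -0.542 units of the Shannon index (permutation p = 0.0169). Without the control libraries numbered 1 these were -41.1 and -0.487 (permutation p = 0.0340 and 0.0354). With any 1 library left out they ran from -54.3 to -40.3 and from -0.640 to -0.465. Leaving out single libraries does not address depth. Control colon was deeper than shocked colon (median 4093 against 1824.5 reads), and the part of depth in these contrasts was not tested. They were known from earlier results of these data.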

How the results depend on the processing

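Of 133 alternative values for the comparisons, 120 kept their direction and side of the threshold, or stayed within 1.5 times for a count, and none was reversed. The exceptions follow, and their cause was not tested. The 15 called features became 6 without a prevalence filter, 9 with a filter at 50% of libraries, 6 without libraries under 1000 reads and 33 in limma on centred log-ratios. The count was 9 to 18 with 1 library left out, falling to 9 without colon 11, 15 or 17. The split of higher in colon to higher in faeces, 5 to 10, was 5 to 6 with TMMwsp and 6 to 6 with library totals. It was 6 to 15 with libraries thinned to 448 reads. The Shannon difference at 2000 reads was -0.227, and control calls without the libraries numbered 1 came to 16. DESeq2 called 3 interactions. Leaving out 1 library, the share of the 10 leading features differed by 4.27 to 7.64 points, passing without colon 18 or faeces 12, and the gap of same-number pairs was 0.0440 to 0.0726, missing the threshold without number 14. Over the same alternatives the richness difference was -50.5 to -37.1, the Shannon difference -0.407 to -0.263 and the share of composition 25.9% to 31.0%. Number pairs correlated above 0.1 in 4 of 8 cases (-0.151 to 0.510, each best with its own number in 2), though same-number libraries lay closer by Bray-Curtis distance. As the labels do not say that a number is a rat, the main tests did not take the numbers as pairs. With the library number as a replicate block 14 features were called, 7 in each direction. Only 9 of these were among the 15, 5 higher in colon and 4 in faeces, and 6 of the 8 faecal calls with no colon read were lost. No single-value comparison changed its call, but p was larger within numbers. Exact sign-flips gave p = 0.0156 for depth and 0.03125 for both richness and the Shannon index. The latter is the lowest p that 6 pairs can give. For composition, exact swaps within a number gave p = 0.00781, the lowest that 256 swaps can give. Tests within numbers have fewer assignments, so the size of their p cannot be set against that of the main tests. Depth limits colon most: at 448 reads the floor is 0.670%.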
